A study of Mus musculus with 24 samples.

Results

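The 9 receptors described here, Ccr2, Ccr4, Ccr7, Ccr8, Cxcr3, Cxcr4, Cxcr6, Gpr18 and Gpr183, are chemokine and related trafficking receptors, chosen by name from the 23366 genes of the deposited tables. Each was found in the estimated-count and FPKM tables of all 24 libraries, and 9 of 9 passed the filter on low counts at both days. The RNA came from CD8+ T cells of C57BL/6 mice. Naive CD62L-high CD44-negative cells were sorted and then stimulated through CD3 and CD28 (1 µg/ml of either antibody), and the libraries form 8 groups of 3. All mice carried floxed Nr3c1, the glucocorticoid receptor gene. Wild-type cells (WT) were E8i-Cre- Nr3c1fl/fl and conditional knockout cells (cKO) were E8i-Cre+ Nr3c1fl/fl, where E8i is a Cd8 enhancer that drives Cre in the CD8 lineage. At day 3, WT and cKO cells had been stimulated for 3 days, alone (Ctrl) or in 10 nM of the synthetic glucocorticoid dexamethasone (Dex). At day 9, WT cells had been stimulated for 3 days, rested in IL2 at 5 ng/ml for 3 days and restimulated for 3 days, either untreated (Ctrl) or in the presence of Dex, of IL27, a cytokine given at 25 ng/ml, or of the pair (Dex+IL27). The age and sex of the mice are not given in the sources used here, nor is it stated that replicates are separate mice or cultures. The p-values therefore cover only the variation among these libraries, which may be technical.

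Chemokine receptors are G protein-coupled receptors that steer leukocytes along gradients of small secreted proteins, and a T cell changes its set of receptors as it passes from naive to effector and memory states. Ccr7 guides naive and central memory T cells into lymph nodes. Ccr2, Cxcr3 and Cxcr6 are known for recruiting effector T cells into inflamed tissue and, for Cxcr6, for keeping resident cells there. Ccr4 and Ccr8 are associated with skin homing and with type 2 and regulatory T cells, and Cxcr4 binds Cxcl12 and retains cells in bone marrow. Gpr183 (EBI2) answers oxysterols and positions lymphocytes within lymphoid organs, and Gpr18 is a G protein-coupled receptor known for its part in maintaining CD8+ intraepithelial lymphocytes of the gut. The comparisons ask how glucocorticoid and IL27 signalling, alone and together, change these transcripts after activation, and whether the Dex change needs Nr3c1.

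Libraries held 14221883 to 19018440 estimated counts. The ribosomal precursor Rn45s took 8.95% to 16.4% of the counts, lowest in Ctrl and highest in Dex+IL27 at day 9, and leaving it out of the fits ended no receptor call. All 8 CD8 T cell identity genes were at 1 CPM (TMM-scaled counts relative to library size) or more in every group. Nr3c1 lay between 14.9 and 21.4 CPM in the 6 WT libraries of day 3 and between 5.32 and 8.20 CPM in the 6 cKO libraries, so the genotypes did not overlap. Which exon is deleted is not stated in the labels, and undeleted exons may still give reads. Of 12 myeloid and dendritic markers, which matter here because myeloid cells carry Ccr2 and other receptors, 2 to 5 reached 1 CPM in a group. Their summed level was 32.5 to 40.1 CPM in WT Ctrl and 55.6 to 64.1 CPM in WT Dex at day 3, and 119 to 130.3 CPM in Ctrl, 182 to 195 CPM in Dex, 153 to 181 CPM in IL27 and 153 to 177 CPM in Dex+IL27 at day 9. Most of each sum was Batf3, which activated CD8+ T cells also express. Lyz2 and Csf1r were at or under 0.149 CPM in every group mean, whereas at day 9 Cd68 rose from a mean of 2.35 CPM in Ctrl to 10.3 with Dex, 12.8 with IL27 and 14.5 CPM with both, and Itgam from 0.19 CPM to 2.06, 1.73 and 9.76. Of 5 NK cell markers, 0 or 1 reached 1 CPM in a group. At day 9 their summed level was 3.33 to 3.84 CPM in Ctrl, 2.60 to 3.07 in Dex and 6.59 to 7.50 in IL27. Of 3 CD4 and regulatory T cell markers tested at day 9, 2 rose and 1 fell with IL27, with sums over the list of 12.5 to 21.6 CPM in Ctrl and 19.3 to 22.3 CPM in IL27. The part of other cell types in the results was not tested.

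Replicate 1 of IL27 stood apart from the others of its group. By a chi-square of the counts per degree of freedom it differed from replicates 2 and 3 by 26.8 and 16.0, while those differed from each other by 6.79 and the replicate pairs of the other day 9 groups by 5.05 to 13. Without it, 7 instead of 8 receptors passed for IL27 against Ctrl, where 57.4% of all genes passed in the full fit. The results whose calls changed are given both ways. At day 3, replicate 6 of cKO Dex likewise differed more from replicates 4 and 5 than those did from each other. Replicate 6 of cKO Ctrl did so by a smaller margin. No receptor was called for Dex in cKO cells in any alternative in which it was tested.

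Ccr7 was the most abundant of the 9 per transcript length in every group mean except Dex+IL27, where Gpr18 was as high. On the deposited FPKM scale (fragments scaled by transcript length and library size), the only one used here to compare genes, Ccr7 was 668 ± 69.6 in WT Ctrl and 1146 ± 75.1 in WT Dex at day 3, and 193 ± 21.9, 279.6 ± 9.38, 125 ± 22.1 and 117 ± 23.8 in Ctrl, Dex, IL27 and Dex+IL27 at day 9 (SD, n = 3). Gpr18 was 44.5 ± 3.49 in WT Ctrl at day 3 and reached 137 ± 9.03 in Dex and 119 ± 7.91 in Dex+IL27 at day 9. Ccr7 held 90.2% ± 1.39 of the summed FPKM of the 9 receptors in WT Ctrl at day 3, 68.8% ± 3.30 in Ctrl at day 9 and 36.1% ± 1.79 in Dex+IL27. Over the same groups the share of Gpr18 was 6.07% ± 0.96, 13.7% ± 0.74 and 37.3% ± 4.31. Cxcr4 was low throughout, at 0.33 to 1.67 FPKM in group means. Ccr2 and Cxcr6 were close to the detection limit at day 3, at 0.10 to 0.26 and 0.57 to 1.22 FPKM, and reached 37.2 ± 13.9 and 36.5 ± 14.6 FPKM in their highest groups of day 9. The 2 days differ in culture history and in the series letter of the sample titles, so the effect of day alone cannot be told apart from these and was not tested.

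**Figure D1:**
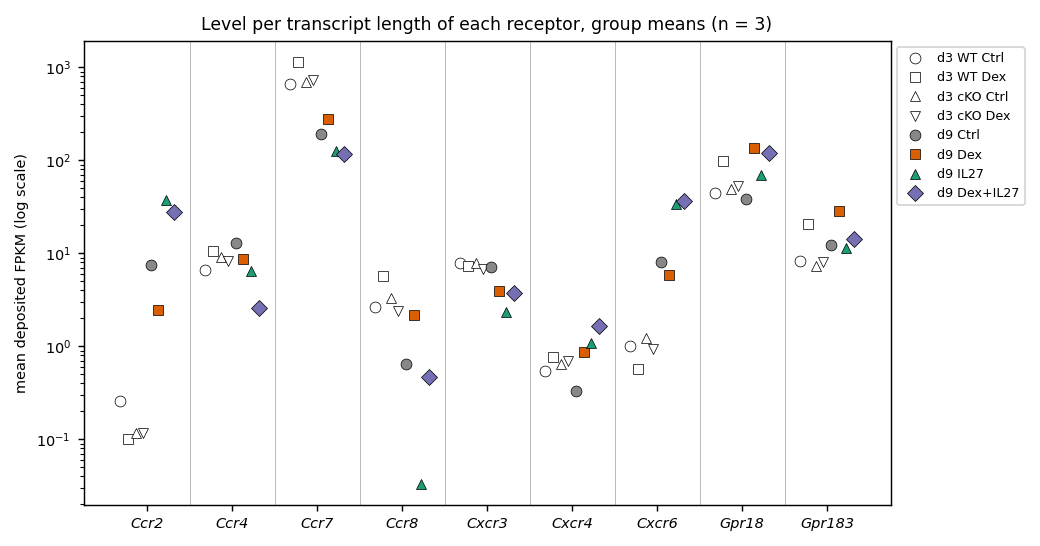
Mean deposited FPKM (log scale) of the 9 receptors in the 8 groups, with open symbols for day 3 and filled symbols for day 9, n = 3 libraries per group. Ccr7 is highest at day 3 (668 to 1146 FPKM), and by Dex+IL27 at day 9 Gpr18 (119) stands level with it (117).

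In WT cells at day 3, Dex raised Gpr183, Gpr18, Ccr8, Ccr7 and Ccr4. These 5 of 9 receptors passed the test and 0 fell, against 9.43% of the 11967 genes tested that passed in either direction, 4.93% that rose and 4.50% that fell. The median log2 change was 0.72 over the 9 receptors and 0.01 over all genes tested. For each of the 5, all 3 Dex libraries lay above all 3 Ctrl libraries. Such separation was not counted over all genes. It was common in the gene lists described below, with 10 of 18 other trafficking and adhesion genes and 14 of 26 signalling genes not overlapping in either direction. In bulk RNA fewer cells of a type and less RNA per cell cannot be told apart.

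The largest of the 5 changes were those of Gpr183 and Gpr18, which are neighbours on mouse chromosome 14. Both lie on the minus strand within the span of Ubac2, a plus-strand gene, with no overlap of exons. The 250 bases upstream of their RefSeq starts (build GRCm38.p6, 5′ to 3′ on the gene's strand, chr14:121915889-121916138 and chr14:121965194-121965443) are shown because both genes rose with Dex at day 3.
Gpr18: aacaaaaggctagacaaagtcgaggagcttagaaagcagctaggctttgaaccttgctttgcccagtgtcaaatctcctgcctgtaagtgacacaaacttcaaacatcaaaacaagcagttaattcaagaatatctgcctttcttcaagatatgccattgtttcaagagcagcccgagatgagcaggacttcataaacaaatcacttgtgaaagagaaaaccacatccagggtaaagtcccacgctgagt
Gpr183: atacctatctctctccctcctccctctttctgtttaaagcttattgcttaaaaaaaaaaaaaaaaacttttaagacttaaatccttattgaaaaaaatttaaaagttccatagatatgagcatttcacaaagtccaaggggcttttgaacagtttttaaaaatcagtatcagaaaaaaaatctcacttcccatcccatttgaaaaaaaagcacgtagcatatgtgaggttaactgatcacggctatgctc
In these windows GC content was 42.4% for Gpr18 and 32.0% for Gpr183. Neither window held a match to the palindromic glucocorticoid response element, the STAT motif TTCNNNGAA, the AP-1 motif TGANTCA or an NF-kB element. The form of the NF-kB element used was not a palindrome, and both strands were searched. Of 32851 windows of the same length, 0.00913%, 7.02%, 6.75% and 1.21% held these motifs, in the order named.

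Gpr18 was at 51.8, 60.3 and 60.4 CPM in the WT Ctrl libraries and at 129, 131 and 127 CPM in the WT Dex libraries of day 3. The rise was 1.17 ± 0.07 on the log2 scale (adjusted p = 3.76e-09, edgeR's quasi-likelihood test), with no overlap and a spread of a few CPM within Dex. Gpr183 was at 23.5, 20.7 and 27.8 CPM in Ctrl and at 60.4, 56.3 and 62.9 CPM in Dex. Its rise was 1.33 ± 0.11 (adjusted p = 2.85e-07). Ccr7 was at 1439, 1266 and 1199 CPM in Ctrl and at 2338, 2078 and 2328 CPM in Dex, a rise of 0.79 ± 0.08 (adjusted p = 1.79e-06). For this lymph node homing receptor the lowest Dex library was well above the highest Ctrl library. Ubac2, the host gene of the Gpr18 and Gpr183 pair, was at 133 ± 9.29 CPM in Ctrl and 145 ± 5.75 CPM in Dex and did not pass (0.14 ± 0.06, adjusted p = 0.191). Of the neighbours looked at, Dock9 rose (0.36 ± 0.10, adjusted p = 0.0306) and Tm9sf2 did not pass (0.07 ± 0.05, adjusted p = 0.454). Host and neighbouring genes were chosen after values had been seen.

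Ccr4 and Ccr8 rose as well, with less margin. Ccr4, the receptor for Ccl17 and Ccl22, was at 17.9, 15.6 and 20.6 CPM in Ctrl and at 28.3, 23.6 and 36.4 CPM in Dex. The change was 0.72 ± 0.17 (adjusted p = 0.0107), and it did not pass without replicate 2 of WT Ctrl (0.62, adjusted p = 0.0662) or replicate 3 of WT Dex (0.53, adjusted p = 0.0800). Ccr8, the receptor for Ccl1, was at 2.16, 3.51 and 3.43 CPM in Ctrl and at 5.12, 6.83 and 7.77 CPM in Dex, a change of 1.12 ± 0.28 (adjusted p = 0.0175). The Ccr8 call was lost without replicate 1 of WT Ctrl (adjusted p = 0.0830) or without replicate 2 or 3 of WT Dex (0.0567 and 0.0875). With replicate 3 of WT Dex left out, 3 of the 5 receptors still passed. In limma on log2 of FPKM plus 1 without a filter 3 passed as well, with Ccr4 at adjusted p = 0.0821 and Ccr8 at 0.0562.

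The window upstream of Ccr4 (chr9:114496545-114496794, minus strand, GRCm38.p6) is shown because it was the 1 window among those of 8 receptors that held any of the 4 motifs. The capitals mark a match to the AP-1 motif, TGAGTCA, 143 to 137 bases before the start.
Ccr4: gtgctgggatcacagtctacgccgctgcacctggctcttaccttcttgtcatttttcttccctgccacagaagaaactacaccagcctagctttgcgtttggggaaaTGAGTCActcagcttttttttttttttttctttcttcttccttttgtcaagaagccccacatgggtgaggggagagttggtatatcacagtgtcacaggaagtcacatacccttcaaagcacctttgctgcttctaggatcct
A match describes these letters and not a bound site. Windows of Ccr2, Ccr8, Cxcr3, Cxcr4 and Cxcr6 held none of the 4 motifs.

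**Figure D2:**
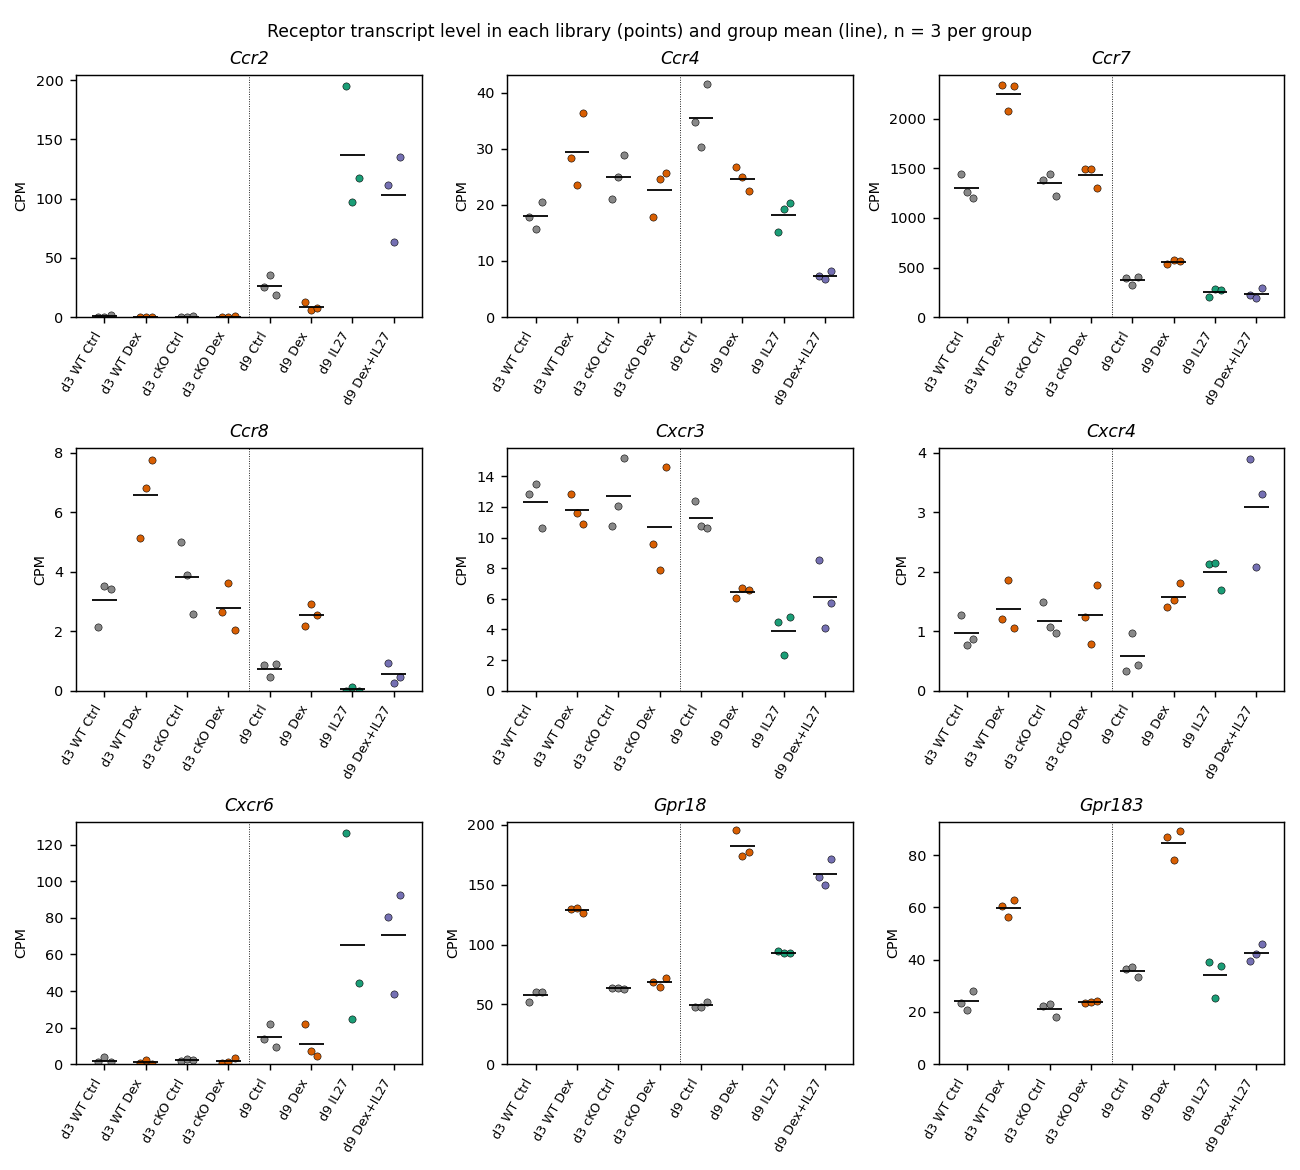
CPM (y axis, linear from 0, own scale per receptor) in each of the 24 libraries as points, with the group mean as a line, n = 3 per group and a dotted line between day 3 and day 9. Gpr18 and Gpr183 stand higher in WT Dex than in the other 9 libraries of day 3, and Ccr2 and Cxcr6 lie near 0 at day 3 and spread widely in the IL27 and Dex+IL27 libraries of day 9.

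The other 4 receptors did not pass in WT cells at day 3. Cxcr3, the receptor for Cxcl9 and Cxcl10, was at 12.3 ± 1.52 CPM in Ctrl and 11.8 ± 0.97 CPM in Dex (-0.06 ± 0.19, 95% interval -0.47 to 0.34). The Ccr4 change of 0.72 lies outside that interval. For Cxcr4 (0.51 ± 0.41, interval -0.36 to 1.37), Cxcr6 (-0.83 ± 0.62, interval -2.15 to 0.49) and Ccr2 (-1.33 ± 0.87, interval -3.15 to 0.49) the low counts left wide intervals. Ccr2 was at 0.32, 0.47 and 1.95 CPM in Ctrl and 0.36, 0.26 and 0.43 CPM in Dex, so that 1 Ctrl library set its mean.

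In cKO cells Dex changed none of the 9 receptors by edgeR, which called 0 of 9 at an adjusted and 0 of 9 at an unadjusted p under 0.05. DESeq2 and limma called 0 as well. The background was 0% of genes in both directions. Gpr18 was at 63.9, 63.8 and 63.0 CPM in cKO Ctrl and 68.9, 64.2 and 72.5 CPM in cKO Dex (0.11 ± 0.07, 95% interval -0.04 to 0.25). Gpr183 was at 22.2, 23.2 and 18.0 CPM in cKO Ctrl and 23.2, 23.9 and 24.1 CPM in cKO Dex (0.17 ± 0.11, interval -0.07 to 0.41). Both intervals lie below the WT changes. For both genes all cKO Dex libraries lay above the cKO Ctrl libraries, by a narrow margin and without passing the test. The difference between the Dex changes of the genotypes, tested as an interaction, passed for 4 of 9 receptors, each higher in WT, against 2.95% of genes (1.57% higher and 1.38% lower). These were Gpr183 (1.16 ± 0.16, adjusted p = 2.88e-04), Gpr18 (1.06 ± 0.10, adjusted p = 4.02e-06), Ccr7 (0.71 ± 0.11, adjusted p = 8.36e-04) and Ccr8 (1.58 ± 0.41, adjusted p = 0.0440). Ccr8 was above the threshold in 10 of 22 alternatives, among them the fits without replicate 1 or 2 of WT Ctrl, replicate 2 or 3 of WT Dex, replicate 4 or 5 of cKO Ctrl, and replicate 4 or 6 of cKO Dex (adjusted p of 0.0639 or more). For Ccr4 the difference was 0.85 ± 0.24 (adjusted p = 0.0616), and it passed in 7 of 22 alternatives, including those without replicate 3 of WT Ctrl (0.95, adjusted p = 0.0464), replicate 2 of WT Dex (0.99, 0.0336), replicate 4 of cKO Ctrl (0.96, 0.0460) and replicate 6 of cKO Dex (0.95, 0.0359).

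Between genotypes without Dex, 0 of 9 receptors passed in edgeR (2 at an unadjusted p under 0.05, Ccr4 and Gpr18), and 0 in DESeq2 or in limma, against 2.36% of genes (1.38% higher and 0.986% lower in cKO). Ccr4 was at 21.0, 24.9 and 28.9 CPM in cKO Ctrl, above the 3 WT Ctrl libraries (0.47 ± 0.17, adjusted p = 0.147), and was called without the filter on low counts (adjusted p = 0.00475). With Dex, 4 of 9 receptors were lower in cKO than in WT and 0 higher, against 6.90% of genes (3.28% lower and 3.63% higher). These were Gpr183 (-1.34 ± 0.11, adjusted p = 2.54e-07), Gpr18 (-0.91 ± 0.07, adjusted p = 8.95e-08), Ccr7 (-0.65 ± 0.07, adjusted p = 1.79e-05) and Ccr8 (-1.25 ± 0.28, adjusted p = 0.0114). The Ccr8 call was lost without replicate 3 of WT Dex (adjusted p = 0.0579). Comparisons within a day share libraries, so these values are not independent of one another.

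**Figure D3:**
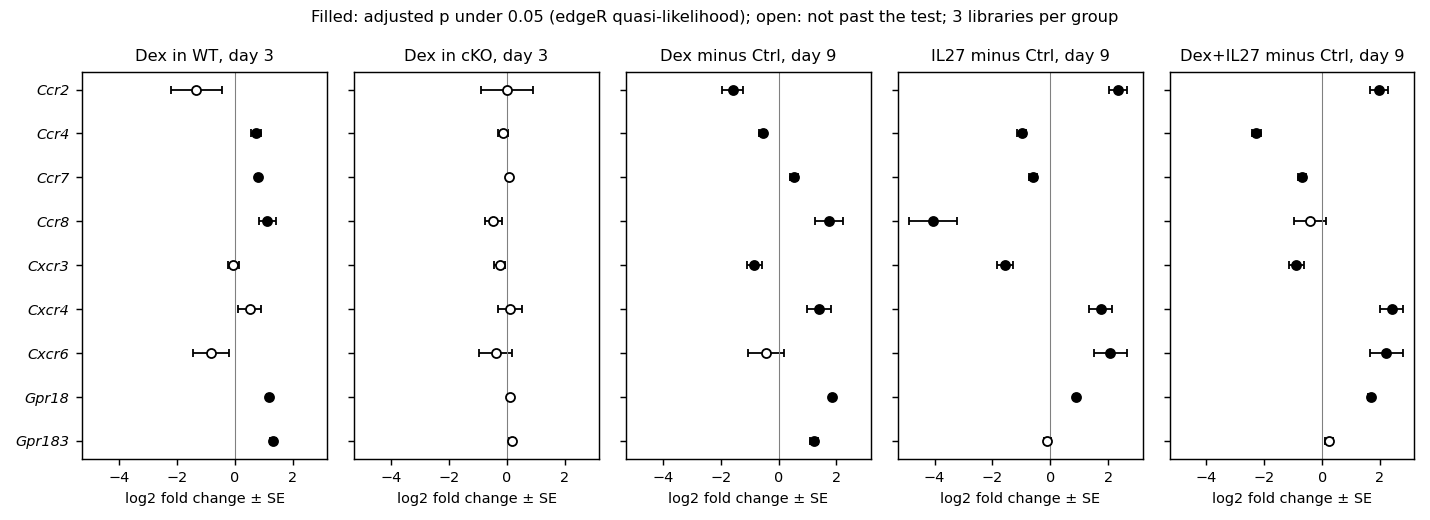
Log2 fold change ± SE (x axis) of each receptor for Dex in WT and in cKO cells at day 3 and for Dex, IL27 and Dex+IL27 against Ctrl at day 9, n = 3 libraries per group. Filled points passed the test (adjusted p under 0.05). Dex passes for 5 receptors in WT and 0 in cKO cells, and Ccr2 lies below 0 with Dex and above 0 with IL27 at day 9.

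At day 9 the 2 signals moved some receptors the same way and others in opposite ways. Gpr18 and Cxcr4 rose and Ccr4 and Cxcr3 fell with either signal. Ccr2, Ccr7 and Ccr8 went opposite ways, Gpr183 passed with Dex only and Cxcr6 with IL27 only. With Dex 5 of 9 rose and 3 fell, with IL27 4 rose and 4 fell, and with both 4 rose and 3 fell, each against the same 3 Ctrl libraries. Of the 12320 genes tested, 55.6% passed with Dex (28.2% up, 27.4% down), 57.4% with IL27 (29.3% up, 28.1% down) and 66.9% with both (34.3% up, 32.6% down). Passing is thus common at this day, and the sizes carry more of the description.

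Ccr2, which binds Ccl2 and directs effector T cells and monocytes, changed in opposite directions with Dex and with IL27. It was at 25.2, 35.2 and 18.4 CPM in Ctrl, 12.8, 6.08 and 7.78 CPM in Dex, 195, 96.8 and 118 CPM in IL27, and 111, 63.3 and 135 CPM in Dex+IL27. Dex and IL27 libraries each lay wholly apart from Ctrl, on opposite sides. Against Ctrl it fell by 1.59 ± 0.36 with Dex (adjusted p = 0.00162) and rose by 2.34 ± 0.32 with IL27 (adjusted p = 1.99e-05) and by 1.96 ± 0.32 with both (adjusted p = 6.61e-05). Dex+IL27 was 3.56 ± 0.36 above Dex and -0.38 ± 0.30 from IL27 (adjusted p = 0.383), with the latter groups overlapping. Without replicate 1 of IL27 the rise with IL27 was 2.00 (adjusted p = 4.52e-05). Of the 6 myeloid and dendritic markers tested at day 9, 3 rose with Dex, 5 with IL27 and 3 with both, and 0 fell (median log2 changes of 0.52, 1.38 and 0.69). Their part in the Ccr2 levels was not tested. Ccr2 shares 2.62% of its 38-base words with other genes, so a small part of its reads could be divided among genes by the counting.

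Cxcr6, the receptor for Cxcl16, was at 13.7, 22.0 and 9.50 CPM in Ctrl, 22.1, 6.96 and 4.54 CPM in Dex, 126, 24.5 and 44.2 CPM in IL27, and 80.6, 38.6 and 92.5 CPM in Dex+IL27. The highest IL27 library was 5.17 times the lowest, and the highest Dex library was 4.87 times the lowest. IL27 raised it by 2.08 ± 0.58 (adjusted p = 0.00676), and Dex+IL27 by 2.22 ± 0.58 (adjusted p = 0.00352). Without replicate 1 of IL27 the former was 1.16 and did not pass (adjusted p = 0.0639), and Dex+IL27 was 1.06 instead of 0.15 above IL27 (adjusted p = 0.116). Dex gave -0.45 ± 0.62 (95% interval -1.78 to 0.88) with overlapping libraries. Cxcr6 lies within the span of Fyco1 on the opposite strand, and Fyco1 rose with Dex (0.91 ± 0.12) and with IL27 (1.01 ± 0.11). The library method does not mark strand, so unspliced Fyco1 transcripts could contribute reads to Cxcr6, and the part they had was not tested.

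In each of the 4 groups of day 9 the library with the highest Ccr2 also had the highest Cxcr6, which was replicate 2 of Ctrl, replicate 1 of Dex, replicate 1 of IL27 and replicate 3 of Dex+IL27. Of 12319 genes other than Ccr2 tested at day 9, 485 (3.94%) were highest in the same 4 libraries, and of the other 8 receptors only Cxcr6 was. Replicate numbers carry no known meaning across groups, and what these libraries had in common was not tested. This relation was chosen after the values had been seen.

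Cxcr3 fell with both signals. It was at 12.4, 10.8 and 10.6 CPM in Ctrl, 6.07, 6.71 and 6.54 CPM in Dex, 4.49, 2.33 and 4.83 CPM in IL27, and 8.51, 4.09 and 5.73 CPM in Dex+IL27. The 3 treated groups overlapped in part with each other and not with Ctrl. The falls against Ctrl were 0.83 ± 0.26 with Dex (adjusted p = 0.0130), 1.57 ± 0.27 with IL27 (adjusted p = 1.48e-04) and 0.89 ± 0.26 with both (adjusted p = 0.00685).

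Ccr4 fell in each treated group, the most with both signals. Its levels were 34.7, 30.3 and 41.5 CPM in Ctrl, 26.7, 24.9 and 22.4 CPM in Dex, 15.1, 19.3 and 20.4 CPM in IL27, and 7.34, 6.73 and 8.15 CPM in Dex+IL27. No library of any of these 4 groups overlapped with another group. Against Ctrl the changes were -0.55 ± 0.14 (adjusted p = 0.00310), -1.0 ± 0.14 (adjusted p = 2.20e-05) and -2.27 ± 0.15 (adjusted p = 5.67e-09). Dex+IL27 was also below Dex (-1.72 ± 0.15) and below IL27 (-1.27 ± 0.15).

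Ccr8 was scarce at day 9. It was at 0.85, 0.46 and 0.90 CPM in Ctrl, 2.17, 2.91 and 2.53 CPM in Dex, 0, 0.12 and 0 CPM in IL27, and 0.93, 0.25 and 0.47 CPM in Dex+IL27. Dex raised it by 1.74 ± 0.49 (adjusted p = 0.00744). The 3 IL27 libraries held 2 counts in all against 40 in Ctrl, a ratio of 19.2 after scaling with an exact 95% counting interval from 4.99 to 164 (adjusted p = 7.60e-04). Dex+IL27 held 28 counts, 14.5 times the IL27 level (interval 3.67 to 126, adjusted p = 0.00700), and was 2.16 ± 0.51 below Dex on the log2 scale (adjusted p = 0.00530). These intervals cover counting error only.

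Ccr7 and Cxcr4, the receptors of lymph node and bone marrow homing, rose with Dex alone and parted in the groups given IL27. Ccr7 was at 392, 328 and 407 CPM in Ctrl, 537, 576 and 566 CPM in Dex, 203, 281 and 274 CPM in IL27, and 224, 195 and 290.2 CPM in Dex+IL27. Dex raised it by 0.55 ± 0.14 (adjusted p = 0.00331), IL27 lowered it (-0.61 ± 0.14, adjusted p = 0.00141) and so did both (-0.68 ± 0.14, adjusted p = 4.51e-04). IL27 and Dex+IL27 libraries overlapped, and the difference between them was -0.07 ± 0.14 (95% interval -0.36 to 0.22). Cxcr4 stood at 0.34, 0.97 and 0.42 CPM in Ctrl, 1.40, 1.52 and 1.81 CPM in Dex, 2.13, 2.15 and 1.70 CPM in IL27, and 3.90, 2.08 and 3.31 CPM in Dex+IL27. Each treated group lay above Ctrl, with rises of 1.41 ± 0.42 (adjusted p = 0.00942), 1.74 ± 0.41 (adjusted p = 0.00198) and 2.40 ± 0.40 (adjusted p = 8.02e-05). At these low levels Cxcr4 was 0.99 ± 0.36 higher in Dex+IL27 than in Dex, just short of the threshold (adjusted p = 0.0501). It passed in 7 of 17 alternatives, among them the fit without replicate 2 of Dex+IL27 (1.21, adjusted p = 0.0274).

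Gpr18 rose with each signal. Its libraries were at 47.9, 48.2 and 52.1 CPM in Ctrl, 195, 174 and 177 CPM in Dex, 94.6, 92.7 and 92.7 CPM in IL27, and 157, 149.8 and 171 CPM in Dex+IL27, with no overlap between any of the 4 groups. The rises were 1.85 ± 0.07 with Dex (adjusted p = 2.79e-10), 0.88 ± 0.07 with IL27 (adjusted p = 1.64e-07) and 1.67 ± 0.07 with both (adjusted p = 2.21e-10). The rise with both was not above that with Dex alone (-0.18 ± 0.07, adjusted p = 0.0660). That comparison passed in 7 of 17 alternatives, including the fit without replicate 3 of Dex+IL27 (-0.24, adjusted p = 0.0341).

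Gpr183 rose with Dex alone. It was at 36.4, 37.2 and 33.4 CPM in Ctrl, 87.1, 78.0 and 89.3 CPM in Dex, 39.2, 25.4 and 37.5 CPM in IL27, and 39.5, 42.0 and 46.0 CPM in Dex+IL27. The Dex libraries stood above the other 9. The changes were 1.22 ± 0.13 with Dex (adjusted p = 1.77e-06), -0.10 ± 0.13 with IL27 (95% interval -0.38 to 0.18) and 0.24 ± 0.13 with both (adjusted p = 0.118), and Dex+IL27 was 0.98 ± 0.13 below Dex (adjusted p = 8.18e-05). The host gene Ubac2 rose with Dex (0.75 ± 0.09), with IL27 (0.81 ± 0.09) and with both (1.55 ± 0.09). Dock9, also near the pair on chromosome 14, rose with each signal (1.40 ± 0.12 with Dex, 0.79 ± 0.12 with IL27). Tm9sf2, another neighbour looked at, fell by less with Dex (-0.14 ± 0.06, adjusted p = 0.0376), with IL27 (-0.35 ± 0.06, adjusted p = 6.57e-05) and with both (-0.24 ± 0.06, adjusted p = 0.00131). Ubac2 was highest in Dex+IL27, at 301.3 ± 7.51 CPM, while Gpr18 and Gpr183 were highest in Dex. What part unspliced Ubac2 transcripts had in the values of Gpr18 and Gpr183 was not tested.

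Whether the Dex change itself depended on IL27 was tested as an interaction, which passed for 5 of 9 receptors, 1 positive and 4 negative, against 28.5% of genes (13.7% positive and 14.7% negative). The Dex change was lower with IL27 than without for Gpr18 (-1.06 ± 0.10, adjusted p = 7.13e-06), Gpr183 (-0.88 ± 0.18, adjusted p = 0.00281), Ccr4 (-0.72 ± 0.20, adjusted p = 0.0163) and Ccr7 (-0.62 ± 0.19, adjusted p = 0.0276). The Ccr4 call was lost in limma on log2 FPKM plus 1 without a filter (-0.53, adjusted p = 0.0854). For Ccr4 this means that the fall with Dex was larger in IL27. Cxcr3 went the other way (1.51 ± 0.38, adjusted p = 0.00828), with a fall in cultures without IL27 and 0.68 ± 0.27 (adjusted p = 0.0827) in cultures with it. The Ccr7 call was lost in 8 of 22 alternatives, namely limma on FPKM without a filter and the fits without replicate 2 of Ctrl, replicate 2 or 3 of Dex, replicate 2 or 3 of IL27, or replicate 1 or 2 of Dex+IL27 (adjusted p from 0.0535 to 0.0840). Ccr2 gave 1.21 ± 0.47 (adjusted p = 0.0662) and passed in 6 of 22 alternatives, including those without replicate 3 of Ctrl (1.41, 0.0423), replicate 1 of Dex (1.57, 0.0351), replicate 1 of IL27 (1.56, 0.0148) and replicate 2 of Dex+IL27 (1.47, 0.0245). Without replicate 2 of IL27, the 1 IL27 library with Ccr8 counts, the Ccr8 value moved from 1.89 ± 1.04 (adjusted p = 0.195) to 4.53 (adjusted p = 0.0486).

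**Figure D4:**
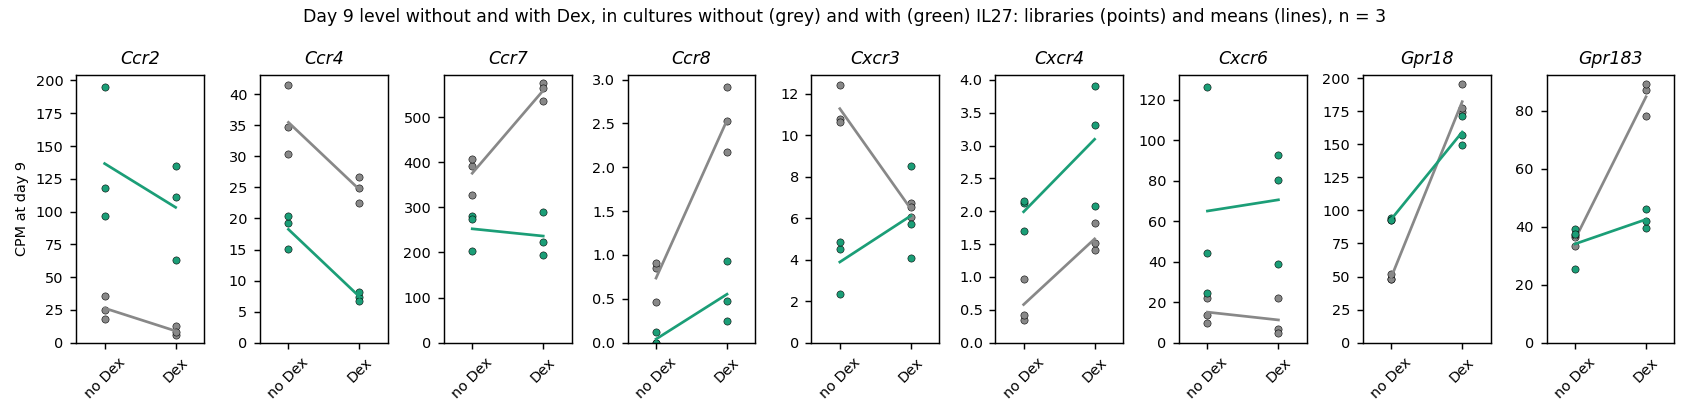
CPM at day 9 (y axis, linear from 0, own scale per receptor) without and with Dex, in cultures without IL27 (grey) and with IL27 (green), with libraries as points and means joined by lines, n = 3. For Gpr183 and Ccr7 the grey line climbs (35.6 to 84.8 and 376 to 559.6 CPM) and the green line stays between 34.0 and 42.5 CPM and between 236 and 253 CPM.

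Set against both IL27 and Dex given alone, the combination showed 3 calls against IL27 and 6 against Dex, with backgrounds of 26.1% (11.7% up, 14.3% down) and 32.0% (14.9% up, 17.1% down). Against IL27, Gpr18 (0.80 ± 0.07, adjusted p = 3.98e-06) and Ccr8 were higher and Ccr4 was lower. Against Dex, Ccr2 and Cxcr6 (2.67 ± 0.61, adjusted p = 0.00392) were higher, and Ccr4, Ccr7 (-1.23 ± 0.14, adjusted p = 2.51e-05), Ccr8 and Gpr183 were lower. Cxcr3, as above, and Gpr183 missed the threshold against IL27 (Gpr183 0.34 ± 0.13, adjusted p = 0.0678). Gpr183 passed without replicate 1 of IL27 (0.45, adjusted p = 0.0183) and Cxcr3 without replicate 2 of Dex+IL27 (0.90, adjusted p = 0.0270).

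The Dex change of WT cells at day 9 differed from that at day 3 for 2 of 9 receptors, 1 up and 1 down, against 39.6% of the 12666 genes tested over all 24 libraries (20.4% up, 19.2% down). Ccr4 rose with Dex at day 3 and fell with it at day 9, a difference of -1.24 ± 0.23 (adjusted p = 1.52e-04), and Gpr18 rose more at day 9 (0.72 ± 0.10, adjusted p = 2.45e-06). Gpr183 and Ccr7 rose at both days, and their differences were -0.07 ± 0.18 (95% interval -0.43 to 0.29) and -0.21 ± 0.17 (interval -0.56 to 0.13). Cxcr3 had -0.74 ± 0.33 (adjusted p = 0.0816). For Cxcr4 the difference was 0.94 ± 0.58 (adjusted p = 0.207), and without replicate 2 of the day 9 Ctrl group, its highest library there, it was 1.53 (adjusted p = 0.0492).

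Over the 8 groups, the receptors differed in where they were high. Gpr18 had its levels in the order Dex, Dex+IL27, WT Dex of day 3 and IL27, each above the next without overlap of libraries (182, 159, 129 and 93.3 CPM), followed by the other day 3 groups and Ctrl of day 9 (49.4 CPM, overlapping with WT Ctrl of day 3). For Gpr183 the order was Dex (84.8 CPM), WT Dex of day 3 (59.9) and Dex+IL27 (42.5) with no overlap of neighbours, and the next groups down to WT Ctrl of day 3 overlapped. Ccr7 was highest in WT Dex of day 3 and lowest in Dex+IL27, whose libraries overlapped with those of IL27. In Ccr2 the 4 day 9 groups stood above the 4 of day 3, among which neighbours overlapped, and IL27 overlapped with Dex+IL27.

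Of 17 other chemokine receptors, 7 were measurable at day 3 and 8 at day 9. With Dex in WT cells at day 3, 1 of the 7 rose and 3 fell, where 9.43% of all genes passed. Ccr6 rose (3.10 ± 0.42, adjusted p = 9.34e-05), and Cxcr2 (-0.58 ± 0.09) and Cxcr5 (-0.85 ± 0.20) were among those that fell. In cKO cells 0 of the 7 passed. At day 9, 1 rose and 2 fell with Dex, and with IL27 6 rose and 2 fell of 8, with Cxcr2 (-1.12 ± 0.10), Ccr1 (1.01 ± 0.20) and Cxcr5 (-1.52 ± 0.39) having the lowest p. With both, 4 rose and 2 fell. Of all genes 55.6%, 57.4% and 66.9% passed in either direction with Dex, IL27 and both. Rises made up 28.2%, 29.3% and 34.3% of all genes, and falls 27.4%, 28.1% and 32.6%. The median log2 change of these receptors was -0.41 with Dex and 1.04 with IL27, beside 0.03 over all genes in each.

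The ligands of the 9 receptors were mostly scarce in these cells, with 6 of 20 measurable at day 3 and 7 at day 9. The inflammatory chemokines Ccl3 and Ccl4, which were on this list, fell with Dex at day 3 (-1.40 ± 0.18 and -0.86 ± 0.20) and at day 9 (-3.91 ± 0.33 and -2.55 ± 0.33). Ccl1, the ligand of Ccr8, passed as a fall with Dex, with IL27 and with both. It was at 12.7 to 19.7 CPM in Ctrl, at 0 to 0.89 CPM in Dex, at 0 to 0.06 CPM in IL27 and at 0 in each Dex+IL27 library, too few reads for a fold change. Ccl5 rose with IL27 (2.36 ± 0.25) and with both (3.60 ± 0.26). Over the list, 0 rose and 3 fell with Dex, and 1 rose and 4 fell with IL27 and with both, of 7 tested, beside 55.6%, 57.4% and 66.9% of all genes that passed in either direction. Rises alone were 28.2%, 29.3% and 34.3% of all genes, and falls 27.4%, 28.1% and 32.6%.

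Among 23 other trafficking and adhesion genes, 18 were measurable at day 3 and 19 at day 9. Dex at day 3 raised 4 and lowered 2, among them S1pr1, which lets T cells leave lymphoid organs (0.74 ± 0.13, adjusted p = 0.00107), Cd44 (-0.50 ± 0.06), the hyaluronan receptor, and the integrin subunit Itga4 (-0.49 ± 0.07). At day 9, Dex raised 6 and lowered 5, with Itgae, the integrin of intraepithelial cells, at 2.16 ± 0.37 and Cd44 at -1.35 ± 0.10. IL27 raised 10 and lowered 4, led by Cd44 (-1.25 ± 0.10), the leukotriene B4 receptor Ltb4r1 (1.56 ± 0.13) and Itga4 (1.02 ± 0.09). With both, 10 rose and 4 fell. The shares of all genes that passed in either direction were 9.43% for Dex at day 3 and 55.6%, 57.4% and 66.9% for Dex, IL27 and both at day 9. By direction, 4.93% rose and 4.50% fell with Dex at day 3. At day 9, 28.2% rose and 27.4% fell with Dex, 29.3% and 28.1% with IL27, and 34.3% and 32.6% with both.

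Signalling and desensitisation genes of these receptors (26 of 28 measurable at day 3 and 27 at day 9) had 4 rises and 5 falls with Dex in WT cells at day 3. Rgs1 (0.55 ± 0.09) and Gna13 (0.39 ± 0.07) rose, and Rgs16 fell (-1.15 ± 0.19). At day 9, Dex raised 10 and lowered 6, IL27 raised 14 and lowered 3, and both raised 12 and lowered 2. All genes passed in either direction at 9.43% for Dex at day 3 and at 55.6%, 57.4% and 66.9% in these day 9 comparisons. The counts of this list in either direction at day 9 lay near or below these shares. By direction, 28.2% of all genes rose and 27.4% fell with Dex, 29.3% and 28.1% with IL27, and 34.3% and 32.6% with both. Rises in this list with IL27 and with both were above those shares, and falls were below them. The G protein subunit Gnaq (1.34 ± 0.10 with Dex, 1.25 ± 0.10 with IL27) and Arrb1, an arrestin that desensitises such receptors (2.04 ± 0.18 with IL27), were among those that rose. Of these 27 genes, 0 had a positive and 6 a negative Dex by IL27 interaction, against 13.7% and 14.7% of all genes, with Gnaq at -0.98 ± 0.13, Arrb1 at -1.51 ± 0.24 and Gna13 at -0.69 ± 0.13.

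The genes whose 8 group means ran closest to each receptor were found by the root mean square difference of centred log2 means among 8838 genes that reached 10 CPM in a group. Icos (0.20), Gramd4 (0.22) and Hdac4 (0.22) were nearest to Gpr18, whose own profile had a root mean square of 0.67. Mpzl3, Aim1 and Elovl6 were nearest to Gpr183 (0.20 to 0.23), and Aff3, Marcksl1 and Slc43a1 to Ccr7 (0.23 to 0.32). For Ccr4 they were Ikzf4, Chaf1a and Stmn1 (0.23 to 0.26), for Cxcr3 Naa20, Skp2 and 2310033P09Rik (0.16 to 0.17), and for Cxcr4 Gimap6, Tjp3 and Parp6 (0.10 to 0.13). Ccr2 and Ccr8 had looser neighbours, Filip1, S100a6 and Esm1 for Ccr2 (0.71 to 0.81) and Furin, Nrp1 and Fes for Ccr8 (0.52 to 0.64), and Osgin1, Lat2 and Prss30 were nearest to Cxcr6 (0.31 to 0.39). Among the 9 receptors the closest pair was Gpr18 and Gpr183 (0.40), followed by Gpr18 and Cxcr4 (0.44). These values describe 8 group means and carry no test.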

How the data were processed

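Per the labels' protocols, each library was made from 1000 sorted cells by SMART-Seq2 (11 cycles of amplification) and sequenced with paired 38 nt reads. The authors deposited a table of estimated counts from RSEM, not normalized, and a table of FPKM values from RSEM, TMM-scaled per its name. The submitters' processing notes name TopHat, RSEM, DESeq and mm9, with no role or order, and versions are not given in the sources used here.

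Counts were rounded and tested with edgeR 4.0.16 (R 4.3.3, quasi-likelihood, two-sided, TMM, filterByExpr by group with minimum count 10 and minimum total 15, prior count 0.125), 12 libraries per day together and all 24 for the day difference. Benjamini-Hochberg adjusted p under 0.05 over all genes counted as a call. The SE is the log2 change divided by the root of F. CPM used TMM over 24 libraries. Alternatives used DESeq2 1.42.0, limma 3.58.1 on log2 FPKM plus 1 or 0.1, other scalings, filters and sample sets, a replicate block and fits that left out 1 library each. Fits were tested on simulated data. Reads were amplified and carry no molecular identifiers.

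Members and gene lists were chosen with earlier results of these data known. Named genes were the 9 receptors, up to 3 called members per list with the lowest p, 3 nearest patterns per receptor, Nr3c1, and genes said in the text to be chosen after their values were seen. Results of 1 further listed gene are not reported here. Promoters came from RefSeq (GRCm38.p6), which matched 8 of the 9 by symbol. Exon overlaps and shared words came from a GRCm38 annotation, used without coordinates. Figures were drawn with matplotlib.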

Additional observations from a re-analysis of the deposited data

Results flagged for a closer look

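A difference between groups was found by an interaction test in edgeR, with 3 libraries per group, for 11 results. At day 3 the Dex change was higher in WT than in cKO cells for Ccr7 (0.71 ± 0.11), Ccr8 (1.58 ± 0.41), Gpr18 (1.06 ± 0.10) and Gpr183 (1.16 ± 0.16). At day 9 the Dex change with IL27 differed from that without IL27 for Ccr4 (-0.72 ± 0.20), Ccr7 (-0.62 ± 0.19), Cxcr3 (1.51 ± 0.38), Gpr18 (-1.06 ± 0.10) and Gpr183 (-0.88 ± 0.18). Between days, the Dex change in WT cells was lower at day 9 for Ccr4 (-1.24 ± 0.23) and higher for Gpr18 (0.72 ± 0.10). Of all genes tested, 2.95%, 28.5% and 39.6% passed these tests, in the order given. The calls between days made up a smaller share of the 9 receptors than of all genes. The Ccr8 call between genotypes was lost in 10 of 22 alternatives. Of the Dex by IL27 calls, that of Ccr7 was lost in 8 of 22 alternatives and that of Ccr4 in 1.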

How the results depend on the processing

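No receptor result changed direction past the test under any alternative. Without the filter on low counts, 1 receptor instead of 0 was called between genotypes without Dex, 6 instead of 3 in Dex+IL27 against IL27, and 4 instead of 2 for the Dex change between days. The share of all genes called was then 4.31% instead of 2.36% between genotypes without Dex, and 24.6% instead of 39.6% between days. For Dex+IL27 against IL27 it was 26.1% with the filter. In limma on log2 FPKM plus 1 without a filter, 3 instead of 5 were called for Dex in WT cells at day 3 and 3 instead of 5 for the Dex by IL27 interaction. For that interaction 15.4% instead of 28.5% of all genes were called. With each library left out, the count for Dex in WT cells at day 3 lay between 3 and 5. Without replicate 3 of WT Dex, where it was 3, 5.68% instead of 9.43% of all genes were called. The share of all genes called moved by over 1.5 times in some settings. Without the filter it was 36.3%, 37.6% and 44.3% for Dex, IL27 and both at day 9. In limma without a filter it was 34.7%, 35.7% and 43.1% there and 4.54% for Dex in WT cells at day 3. With scaling by library totals only, 35.3% instead of 58.3% of calls between genotypes without Dex were rises. Same-numbered libraries did not deviate together in WT cells at day 3 (r from -0.02 to 0.01). At day 9 their r ran from -0.18 to 0.30, with 4 of 18 pairs over 0.1, beside 7 of 36 pairs with different numbers. In cKO cells the 3 same-numbered pairs had r from 0.04 to 0.17, and the 6 others from -0.14 to 0.06. Whether the cKO libraries were paired cannot be told from so few values. No label says that the numbers mark pairs, so the main fits did not use them. With the replicate number as a block the counts were 5 for Dex in WT cells and 0 in cKO cells, 5 for the genotype interaction (Ccr4 added, adjusted p = 0.00258), 6 for the Dex by IL27 interaction (Ccr2 added, 0.0369) and 3 for the day difference (Cxcr3 added, 0.0446). In the main fits the shares of all genes called in these comparisons were 9.43%, 0%, 2.95%, 28.5% and 39.6%, in this order. Depth limits Ccr2, Cxcr4 and Cxcr6 at day 3 and Ccr8 and Cxcr4 at day 9, where a library held few counts.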
